A study of Mus musculus with 12 samples.

Results

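The 10 genes described here carry antigen presentation by the major histocompatibility complex (MHC) in the mouse. The class I genes are H2-K1, H2-D1, B2m, Tap1 and Tapbp, and the class II genes are H2-Aa, H2-Ab1, H2-Eb1, Cd74 and Ciita. They were chosen by name, and all 10 were found among the 14188 genes of the protein-coding table, with 21 listed transcripts between them. The level of a gene is the sum of the FPKM values of its listed transcripts, a count of fragments relative to transcript length and to the mapped fragments of the library. RNA came from the livers of 12 mice, 6 of the PZH group and 6 of the control group. All 12 mice received CCl4, a solvent that injures hepatocytes and leads to fibrosis when given repeatedly, mixed with corn oil and injected into the peritoneum at 10 µl/g, 2 times per week. Mice of the PZH group were also given Pien Tze Huang (PZH), a Chinese herbal medicine, into the stomach at 0.25 mg/g, 1 time per day, and the control group received double distilled water by the same route. The mice were 6 weeks old males at the start and were killed in week 8. The labels give the strain as C57BL/8, and the methods of the study give C57BL/6J. No liver without CCl4 was analysed here, so that each difference below is between injured livers with and without PZH.

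Class I molecules show peptides from inside the cell to CD8 T cells and occur on nearly all nucleated cells. Proteasomes cut the peptides, the TAP transporter moves them into the endoplasmic reticulum, tapasin holds the empty class I molecule at the transporter, and the peptide is bound by a heavy chain paired with beta-2-microglobulin. Class II molecules show peptides from material that the cell has taken up to CD4 T cells and are made mainly by macrophages, dendritic cells and B cells. Their alpha and beta chains assemble around the invariant chain, which is later cut away by cathepsin S and exchanged for a peptide with the help of H2-DM. Transcription of class II genes depends on the coactivator CIITA and that of class I genes on its relative NLRC5. Both act through factors that sit on short boxes upstream of the gene, and interferon-gamma raises both sets. In the liver, hepatocytes carry class I, and Kupffer cells, other macrophages and dendritic cells carry class II.

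Promoter windows are shown for 4 genes because these boxes lie where CIITA and NLRC5 act on both classes. RefSeq promoters (GRCm38.p6) matched 7 of the 10 genes by symbol, and H2-Ab1, Cd74 and Ciita had no entry. Each line gives 160 bases that end at the transcription start of RefSeq, on the strand of the gene, 5′ to 3′. The windows are chr17:34000348-34000507 (minus strand) for H2-K1, chr2:122147527-122147686 (plus strand) for B2m, chr17:34287824-34287983 (minus strand) for H2-Aa and chr17:34305707-34305866 (plus strand) for H2-Eb1. Capitals mark the letters ATTGG of the Y box core, ACNGATG of the X box core, GGGA and CC with NTNN between them for NF-kappaB, and GAAA repeated after 2 letters of any kind for interferon response elements, each searched on both strands.
H2-K1: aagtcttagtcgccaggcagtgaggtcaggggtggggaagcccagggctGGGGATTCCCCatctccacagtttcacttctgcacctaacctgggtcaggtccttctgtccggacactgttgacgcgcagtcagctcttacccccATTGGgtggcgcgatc
B2m: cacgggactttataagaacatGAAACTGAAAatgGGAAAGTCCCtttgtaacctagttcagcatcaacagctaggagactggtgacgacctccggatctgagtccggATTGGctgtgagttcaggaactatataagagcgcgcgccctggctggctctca
H2-Aa: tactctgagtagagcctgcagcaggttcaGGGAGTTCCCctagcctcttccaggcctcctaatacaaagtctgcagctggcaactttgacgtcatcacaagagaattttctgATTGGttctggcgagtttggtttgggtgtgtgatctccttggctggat
H2-Eb1: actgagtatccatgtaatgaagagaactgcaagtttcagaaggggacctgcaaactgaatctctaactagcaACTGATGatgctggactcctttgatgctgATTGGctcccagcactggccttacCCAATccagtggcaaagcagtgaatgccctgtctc

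Of the 7 members with a window, 5 held the Y box core (the 4 shown and H2-D1), which 25.6% of 32851 promoter windows of the same length held as well. The X box core stood upstream of the Y box in H2-Eb1 and H2-D1 and was in 5.2% of all windows. The windows of Tap1 and Tapbp held none of the 4 motifs. Like that of H2-D1, they lie within annotated exons, counted over all genes and both strands, for which reason these 3 are not shown. Letters of NF-kappaB were present in 3 of the 7, H2-K1, B2m and H2-Aa, where in H2-K1 matches on the 2 strands overlap, and in 2.26% of all windows. Of the 7 windows, that of B2m alone held the interferon response letters, which were in 1.72% of all windows. These are matches of letters, and no binding was measured.

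FPKM values are relative within a mouse. The median log2 fold change (PZH minus control, on log2(FPKM + 1)) of all genes was -0.11. With limma and Benjamini-Hochberg adjustment over all genes at 0.05, 1798 genes were called higher and 4560 lower in the PZH group. Dividing each mouse by a median-ratio scale factor shifted the median by 0.105 to -0.005, and the split became 2736 higher and 2793 lower. The hepatocyte markers Alb, Apoa1, Ttr, Serpina1a, Cps1 and Tat together made 41600 to 58050 FPKM among PZH mice and 23560 to 37440 FPKM among control mice, and this sum, most of which is Alb, did not overlap between the groups. Alone, Alb and Cps1 were apart and the other 4 overlapped. The part of this shift in the differences below was not tested. Every member is therefore given on the deposited scale, and the median-ratio value is named where it changes a call or a direction.

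Class II genes were higher in mean level in the PZH group in 5 of 5 cases, and class I genes were lower in 4 of 5, with B2m the exception. Of the 10 genes, 2 were called higher, Ciita and B2m, and 1 was called lower, Tapbp. Over all genes 12.7% were called higher and 32.1% lower, or 44.8% in either direction, so that 3 of 10 is not above the background. An unadjusted P under 0.05 was found for 5 of 10 against 51.7% of all genes. No member passed the rule of the study, a 2-fold change with P under 0.05, which 4.02% of all genes passed. In no member were the 6 PZH mice fully apart from the 6 control mice, whereas 24.3% of all genes showed no overlap.

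**Figure D1:**
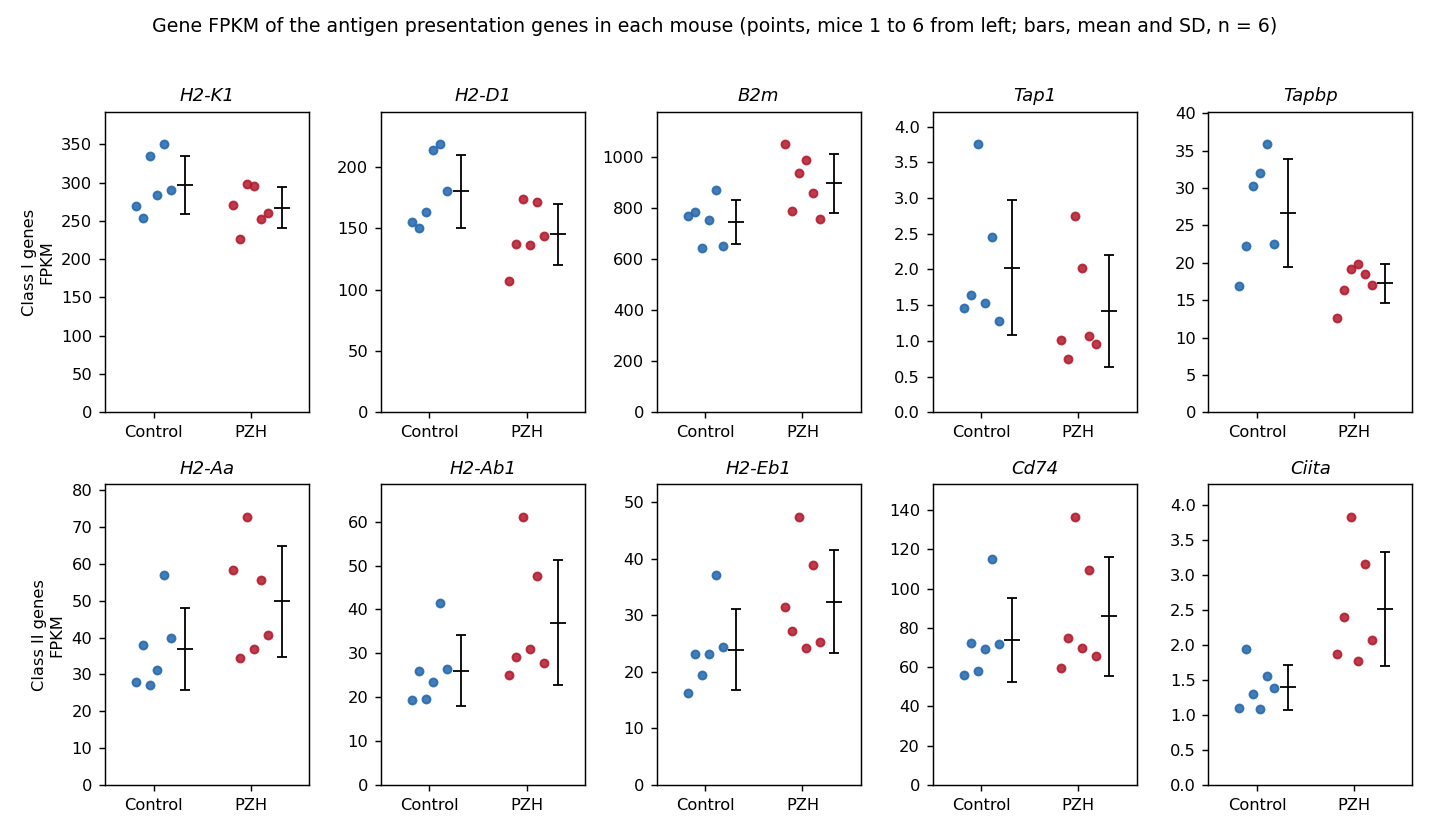
Gene FPKM (vertical axes, linear, from 0) of the 5 class I genes (upper row) and the 5 class II genes (lower row) in the 6 control mice (blue) and the 6 PZH mice (red). Points are mice and bars are the mean and SD. The groups overlap in all 10 panels, and the separation is widest in Ciita, where 4 PZH mice lie above all control mice.

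H2-K1 encodes a classical class I heavy chain and lies at chr17:33996017-34000347 on the minus strand (GRCm38, GENCODE M21). Its level among PZH mice had a lowest value of 226.1, a median of 265.8 and a highest value of 297.5 FPKM, against 254.1, 287.2 and 350.5 FPKM among control mice. The groups overlapped over most of their range, and only PZH mice 2 and 5 lay below all control mice. The log2 fold change of -0.15 (SE 0.09) was not called (limma, adjusted p = 0.22; two-sided exact permutation test, p = 0.158). With the median-ratio scale factor its sign turned, to 0.04.

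H2-D1 encodes the other classical heavy chain of this strain and lies at chr17:35262730-35267499 on the plus strand. It ranged from 106.8 to 174.3 FPKM with a median of 140.9 among PZH mice, and from 150.6 to 219 FPKM with a median of 171.9 among control mice. PZH mice 1, 2, 4 and 6 lay below all control mice, and PZH mice 3 and 5 lay among them. The mean was 145 ± 25.1 FPKM (SD, n = 6) against 180.5 ± 29.9 FPKM (SD, n = 6), a log2 fold change of -0.315 (SE 0.13) that was not called (limma, adjusted p = 0.069; exact permutation test, p = 0.0541). It was called lower without control mouse 2 (adjusted p = 0.048), without PZH mouse 3 (0.0422) or without PZH mouse 5 (0.0465). Heavy chain genes are alike in sequence, yet 1.79% of the 150-base windows of the main H2-D1 transcript occurred unchanged in another gene, H2-Q1, and none of those of the other 9 members did.

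B2m encodes beta-2-microglobulin, the small chain that every class I heavy chain needs, and lies at chr2:122147686-122153083 on the plus strand. It had the highest level of the 10 genes and ranked 49 among all genes in mean log2(FPKM + 1). The PZH mice ranged from 755.7 to 1052 FPKM with a median of 898.5, and the control mice from 642.9 to 870.7 FPKM with a median of 759.6. PZH mice 1, 3 and 4 lay above all control mice, and PZH mice 2, 5 and 6 lay within their range. B2m was thus 20.5% higher in mean FPKM, at 897 ± 116 against 745 ± 85.9 FPKM (SD, n = 6 each). The log2 fold change of 0.27 (SE 0.10) was just past the threshold (limma, adjusted p = 0.0449; exact permutation test, p = 0.0346). The call was lost with a pseudocount of 0.1, an equal FPKM sum per mouse, a mean-variance trend or the most abundant transcript (adjusted p 0.057 to 0.0734), and in 9 of the 12 fits without 1 mouse (highest adjusted p 0.096).

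Tap1 encodes 1 of the subunits of the peptide transporter and lies at chr17:34187553-34197225 on the plus strand. Its level was low, at 0.751 to 2.74 FPKM with a median of 1.04 among PZH mice and 1.27 to 3.76 FPKM with a median of 1.59 among control mice. PZH mice 3 and 4 lay within the control range and the other 4 lay below it. The log2 fold change was -0.325 (SE 0.22), which was not called (limma, adjusted p = 0.243; exact permutation test, p = 0.208).

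Tapbp encodes tapasin and lies at chr17:33915899-33929292 on the plus strand. Its level ranged from 12.6 to 19.9 FPKM with a median of 17.8 among PZH mice and from 16.9 to 35.9 FPKM with a median of 26.4 among control mice. Control mouse 1, at 16.9 FPKM, was the only control mouse within the range of the PZH group. Tapbp fell by 35.3% in mean FPKM, from 26.7 ± 7.19 to 17.2 ± 2.64 FPKM (SD, n = 6 each), or by 0.57 on the log2 scale (SE 0.17, limma adjusted p = 0.0145; exact permutation test, p = 0.013). The call was present in each of the 12 fits without 1 mouse, with adjusted p from 0.00282 to 0.0339. It was lost with the median-ratio scale factor, where the log2 fold change was -0.40 (adjusted p = 0.0569).

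H2-Aa, H2-Ab1 and H2-Eb1 encode class II chains, and the level of each was higher on average in the PZH group without passing the test. Whether H2-Eb1 formed complete I-E molecules in these mice was not examined. In bulk liver, fewer cells of a type and less RNA per cell cannot be told apart, and this holds for each difference given here. H2-Aa, the alpha chain of I-A (chr17:34282744-34287823, minus strand), ranged from 34.4 to 72.9 FPKM with a median of 48.3 among PZH mice and from 27.1 to 57.1 FPKM with a median of 34.6 among control mice. H2-Ab1, its beta chain (chr17:34257689-34269419, plus strand), ranged from 25.1 to 61.2 FPKM with a median of 30.1 among PZH mice and from 19.4 to 41.4 FPKM with a median of 24.8 among control mice. H2-Eb1, the beta chain of I-E (chr17:34305867-34316674, plus strand), ranged from 24.1 to 47.4 FPKM with a median of 29.3 among PZH mice and from 16.3 to 37.1 FPKM with a median of 23.1 among control mice. In each of these genes 2 PZH mice lay above all control mice, and the highest control value came from mouse 5.

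The log2 fold change was 0.42 (SE 0.21) for H2-Aa, 0.46 (SE 0.23) for H2-Ab1 and 0.425 (SE 0.20) for H2-Eb1. The limma adjusted p was 0.124, 0.121 and 0.0959, and the exact permutation p was 0.106, 0.106 and 0.0823, in the same order. These differences moved with single mice of both groups. Without control mouse 5 they were 0.55 (adjusted p = 0.0381), 0.60 (0.041) and 0.56 (0.0237), and all of these genes were called higher. Without PZH mouse 3 they were 0.30 (adjusted p = 0.251), 0.30 (0.247) and 0.31 (0.197), and none was called. With the median-ratio scale factor and all mice, each of these genes was called higher, at 0.60 (adjusted p = 0.0372), 0.64 (0.0283) and 0.60 (0.019).

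Cd74 encodes the invariant chain, lies on chromosome 18 and had the highest level of the class II genes. It ranged from 59.6 to 136.6 FPKM with a median of 72.1 among PZH mice and from 55.8 to 115 FPKM with a median of 70.5 among control mice. The medians were thus close, and PZH mouse 3 alone exceeded control mouse 5. The log2 fold change of 0.20 (SE 0.22) was not called (limma, adjusted p = 0.496; exact permutation test, p = 0.426), nor was it with the median-ratio scale factor (0.38, adjusted p = 0.146) or without control mouse 5 (0.33, adjusted p = 0.206). Without PZH mouse 3 the log2 fold change was 0.05 (limma, adjusted p = 0.86).

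Ciita encodes the coactivator on which class II transcription depends and lies at chr16:10480059-10528418 on the plus strand. It was listed at 1.77 to 3.83 FPKM with a median of 2.23 among PZH mice and at 1.09 to 1.94 FPKM with a median of 1.34 among control mice. PZH mice 2, 3, 5 and 6 lay above all control mice, and PZH mice 1 and 4 lay below control mouse 2 but above the other 5. Ciita was 80.3% higher in mean FPKM, at 2.51 ± 0.813 against 1.39 ± 0.319 FPKM (SD, n = 6 each). The log2 fold change was 0.53 (SE 0.14, limma adjusted p = 0.00751; exact permutation test, p = 0.00649). Ciita was called higher under all 7 other settings of the gene fit and in each of the 12 fits without 1 mouse (adjusted p up to 0.0183).

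Of the 21 transcripts of the members, 16 had a mean of at least 1 FPKM in a group, and 3 passed limma's adjusted threshold over all transcripts, 1 of them higher and 2 lower, where 19.7% of 29876 transcripts did (5.73% higher and 14% lower). No member transcript passed the 2-fold rule, which 3.23% of all transcripts passed. The Ciita transcript ENSMUST00000023147, which made 59% of the Ciita level in PZH mice and 53.1% in controls, stood at 1.04 to 2.39 FPKM among PZH mice and at 0.371 to 1.01 FPKM among control mice. It was the only one of the 3 in which the groups did not overlap, a property of 12% of all transcripts. Its log2 fold change was 0.50 (SE 0.13, limma adjusted p = 0.0169; exact permutation test, p = 0.00216, the smallest that the 924 labellings give). The other 2 Ciita transcripts had means under 1 FPKM in both groups.

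The main Tapbp transcript ENSMUST00000234247, with 90.6% and 92.3% of the level in the PZH and control groups, fell by 0.59 on the log2 scale (SE 0.18, limma adjusted p = 0.0337). Its adjusted p was above 0.05 in 7 of the 12 fits without 1 mouse, and with the median-ratio scale factor it was 0.107. For Tap1, the transcript ENSMUST00000170086 was lower in the PZH group, at 0.450 to 0.952 FPKM against 0.694 to 1.92 FPKM (log2 fold change -0.449, SE 0.13, limma adjusted p = 0.0241). Another Tap1 transcript, ENSMUST00000041633, was listed at 0 in 9 mice and had values only in PZH mouse 3 (2.18 FPKM), PZH mouse 4 (1.57 FPKM) and control mouse 3 (2.79 FPKM). The summed level of Tap1 was highest in control mouse 3 and PZH mouse 3, so that the gene and the first transcript rank the mice differently. The fall of ENSMUST00000170086 was not called with the median-ratio scale factor (adjusted p = 0.0702) or without control mouse 4, control mouse 5, PZH mouse 3 or PZH mouse 4 (0.0516 to 0.0553). B2m has a single listed transcript, and over all transcripts its adjusted p was 0.0944.

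The other genes were made mostly from 1 transcript in both groups. ENSMUST00000025181 held 92.7% and 93.2% of the H2-K1 level in the PZH and control groups, and ENSMUST00000172785 held 96.8% and 96.7% of the H2-D1 level. The exception was Cd74, where ENSMUST00000050487 made 67.8% and 69.6%, and ENSMUST00000097563, which has 1 more exon, made 32.2% and 30.4%. Neither Cd74 transcript was called (log2 fold change 0.16, adjusted p = 0.675, and 0.26, adjusted p = 0.504).

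The levels of the 2 classes were set against each other within each mouse as the mean log2(FPKM + 1) of the 5 class I and of the 5 class II genes. The class I mean was 6.09 ± 0.19 in PZH mice and 6.30 ± 0.20 in controls (SD, n = 6 each), and the class II mean was 4.79 ± 0.39 and 4.39 ± 0.32. Class II minus class I ranged from -1.75 to -0.93 among PZH mice and from -2.34 to -1.66 among control mice. PZH mouse 4 was the only PZH mouse within the range of the control group, and the other 5 lay above it. The mean difference between groups was 0.63 on the log2 scale, with 0.54 to 0.72 when 1 mouse was left out, and it was 0.62 with the median-ratio scale factor, which leaves comparisons within a mouse nearly as they were. When the regulator and the loading genes were set aside and only H2-K1, H2-D1 and B2m were compared with H2-Aa, H2-Ab1, H2-Eb1 and Cd74, it was 0.44 and 2 of 6 PZH mice lay above all control mice. These sums over chosen genes are given as a description, with no test.

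**Figure D2:**
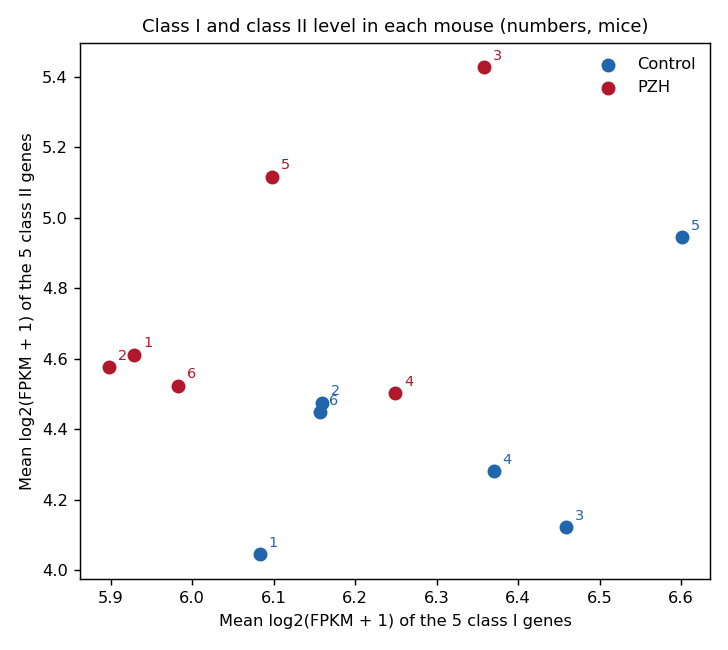
Mean log2(FPKM + 1) of the 5 class I genes (horizontal axis) and of the 5 class II genes (vertical axis) in each mouse, numbered within its group (blue, control; red, PZH). Class II minus class I is larger in 5 PZH mice than in any control mouse, and PZH mouse 3 and control mouse 5 are highest in both classes within their groups.

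Ratios of 2 genes within a mouse do not depend on the scaling of the mouse, and 10 such ratios were computed. In 2 of them the groups did not overlap. A share over other pairs of genes was not computed, and among single genes 24.3% showed no overlap. Ciita over Nlrc5, the class II regulator over the class I regulator, was 0.305 to 0.52 among PZH mice and 0.0793 to 0.271 among control mice. Ciita alone was called higher and Nlrc5 alone lower, so that this ratio is not a separate result. Cd74 over H2-Ab1, the invariant chain over a chain that it accompanies, was 2.23 to 2.55 among PZH mice and 2.72 to 2.95 among control mice. The latter ratio varied little within a group, at 2.35 ± 0.116 and 2.84 ± 0.098 (SD, n = 6), although the level of each gene varied by a CV of 29.2% to 38.6%.

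Within class I, B2m over H2-K1 was 2.9 to 3.89 among PZH mice and 1.92 to 3.08 among control mice, and PZH mouse 6 alone lay within the control range. H2-K1 over H2-D1 was 1.47 to 2.54 and 1.33 to 2.05, with the groups mixed. Across the classes, H2-K1 over H2-Ab1 was 4.86 to 10.8 among PZH mice and 8.47 to 17 among control mice. H2-Aa over H2-Ab1, the 2 chains of I-A, stood at 1.17 to 1.46 in 5 PZH mice and at 2.32 in PZH mouse 1, against 1.34 to 1.51 among control mice. The same mouse had the highest H2-Eb1 over H2-Ab1, at 1.25, where all other mice of both groups were at 0.775 to 0.991.

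**Figure D3:**
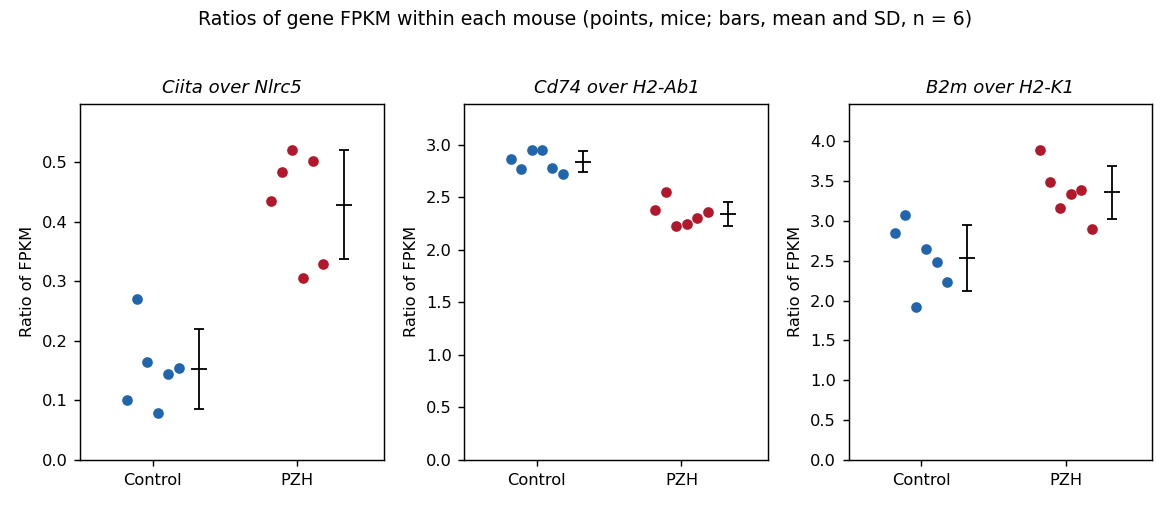
Ratios of gene FPKM within each mouse (vertical axes, linear, from 0) for Ciita over Nlrc5, Cd74 over H2-Ab1 and B2m over H2-K1, in the control (blue) and PZH (red) mice, with bars for the mean and SD. The groups are apart in the first and second panel and overlap in the third.

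By mean FPKM over the 12 mice, a level per length, the members ordered as B2m, H2-K1, H2-D1, Cd74, H2-Aa, H2-Ab1, H2-Eb1, Tapbp, and at a low level Ciita and Tap1. Neighbours whose ranges overlapped within both groups were Cd74 and H2-Aa, H2-Aa and H2-Ab1, H2-Ab1 and H2-Eb1, and Ciita and Tap1. In the control group alone the order of means differed, with Tapbp (26.7 FPKM) above H2-Ab1 (26.1) and H2-Eb1 (23.9), and Tap1 (2.02) above Ciita (1.39). H2-Eb1 and Tapbp were apart in PZH mice and overlapped in controls, and H2-D1 and Cd74 overlapped with PZH and were apart without. The CV between mice was 28.1% to 38.6% for the 4 class II structural genes and 10.2% to 17.3% for the chains H2-K1, H2-D1 and B2m. Tap1 varied most, at 55.1% with PZH and 46.7% without.

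The class II genes rose and fell together from mouse to mouse. All 5 were highest, within the PZH group, in mouse 3, and 4 of them were highest, within the control group, in mouse 5. This was not particular to class II, because 8 of the 10 members were highest in PZH mouse 3 and 8 in control mouse 5. The pattern of H2-Aa, H2-Ab1, H2-Eb1 and Cd74 was followed over the 12 mice as deviations from the group mean and compared with all genes of at least 1 FPKM in mean. The genes most like it were H2-DMb1 (r = 0.989), Camk1 (0.917), Pld4 (0.913), Arpc5 (0.904) and Csf1r (0.893), of which H2-DMb1 encodes a chain of the peptide exchange factor and Csf1r the macrophage growth factor receptor. Between the groups H2-DMb1 and Csf1r were called higher with PZH, Camk1 was called lower (log2 fold change -0.829, limma adjusted p = 0.000227), and Pld4 and Arpc5 were not called. Against the same pattern Ciita had an r of 0.768, H2-DMa 0.842, Ctss 0.729 and the pan-leukocyte gene Ptprc 0.452. The B cell marker Cd79b had 0.556 and the Kupffer cell marker Clec4f 0.302. For the class I chains the genes most alike were Tspan13 (0.895), H2-Q6 (0.859), Slamf8 (0.851), H2-Q7 (0.832) and Slc25a36 (0.806), of which H2-Q6 and H2-Q7 are nonclassical heavy chains. Against this class I pattern H2-Ab1 had an r of 0.757, Cd74 0.746, H2-Eb1 0.728, H2-Aa 0.647 and Ciita 0.277. The chains that make up the pattern had 0.757 (H2-K1), 0.723 (H2-D1) and 0.537 (B2m). These correlations are over 12 mice of 1 series, in which all genes of a mouse share a library, and are given without a p.

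Within each group of 6 mice, 16 relations between a regulator and a target were examined by Pearson's r and Spearman's rho. None had an adjusted p under 0.05, and 5 had an unadjusted p of r under it (exact permutation over 720 orders). The highest r was that of Ciita with Cd74 in the PZH group, at 0.967 (exact permutation p = 0.00694, adjusted 0.0833), with a rho of 0.829 (p = 0.0583, adjusted 0.311). It became 0.587 without the 2 mice farthest from the median of Ciita, PZH mice 3 and 5. Without the same mice the r of Ciita with H2-Ab1 went from 0.937 to 0.0826, with H2-Eb1 from 0.901 to 0.0593 and with H2-Aa from 0.655 to -0.468, so that these relations rest on those mice. In the control group the same pair had an r of 0.474 (exact permutation p = 0.331, adjusted 0.483) and a rho of 0.771 (p = 0.103, adjusted 0.35), and an r of 0.894 without the 2 farthest mice. Nlrc5 with H2-D1 in the PZH group had an r of 0.905 (exact permutation p = 0.0208, adjusted 0.0833) and a rho of 0.943 (p = 0.0167, adjusted 0.267), and an r of 0.589 without the 2 farthest mice. Nlrc5 with H2-K1 in the control group had an r of 0.0834 (exact permutation p = 0.875, adjusted 0.875) and a rho of 0.0857 (p = 0.919, adjusted 0.919).

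The rest of the pathway was followed in 7 lists with 63 other genes, of which 3 were called higher and 18 lower. Against the background of 12.7% and 32.1% these counts do not set the pathway apart. They change with the scaling, and the calls with the median-ratio scale factor are given with each list. Calls in the class I lists were mainly to the lower side, as were the calls over all genes, but not with the median-ratio scale factor. Among 12 other heavy chains (median log2 fold change 0.08), Mr1, which shows vitamin B metabolites to MAIT cells, was higher at 2.75 to 4.28 FPKM against 1.40 to 2.22 FPKM without overlap (log2 fold change 0.69, SE 0.10, limma adjusted p = 0.000152). H2-T24 and H2-M3 fell by 0.39 and 0.21 on the log2 scale, and 9 did not pass. Among 11 genes of peptide supply and loading (median -0.10), the chaperones Calr and Pdia3, which work with tapasin, fell by 0.43 each, the tapasin relative Tapbpl fell by 0.25, and none rose. Calr stood at 385.5 to 608.4 FPKM among PZH mice and 640.6 to 685.3 FPKM among control mice. Tap2, the partner of Tap1, had a log2 fold change of 0.15 (adjusted p = 0.663), and the immunoproteasome genes Psmb8 and Psmb9 of -0.10 (0.586) and 0.06 (0.802). With the median-ratio scale factor none of these 11 was called, and of the heavy chains 3 were called higher and none lower. The H2-M3 call was also lost in 8 of the 12 fits without 1 mouse.

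Nlrc5, the class I coactivator, was 4.31 to 7.36 FPKM with a median of 6.04 among PZH mice and 7.14 to 13.7 FPKM with a median of 9.83 among control mice. Only 1 PZH mouse reached the control range. It fell by 0.66 on the log2 scale (SE 0.15, limma adjusted p = 0.00293), and the call was present without any 1 mouse. Irf9, part of the interferon-activated factor ISGF3, fell by 0.67 (0.10; adjusted p = 0.000188) without overlap. Irf1, a transcription factor that interferon-gamma induces, was not called, at 0.13 (adjusted p = 0.433). The 5 class I regulators thus held 2 calls to the lower side and 3 genes that did not pass. With the median-ratio scale factor 1 of the 5 was called higher and 2 lower.

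Among 11 other class II chains and loading genes (median 0.17), H2-DMb1 was higher, at 6.02 ± 1.63 against 3.76 ± 1.02 FPKM (SD, n = 6; log2 fold change 0.56, SE 0.16, limma adjusted p = 0.0118). March1, a ubiquitin ligase that removes class II and Cd86 from the surface, was higher by 0.32 (0.07; adjusted p = 0.00359), a call that was lost with the most abundant transcript (0.31, adjusted p = 0.23). Lgmn, a lysosomal protease that takes part in cutting antigens, fell by 0.49 (0.09; adjusted p = 0.000773) without overlap. H2-DMa and the cathepsin gene Ctss were not called, at 0.45 (adjusted p = 0.0711) and 0.31 (0.0799), and both were called with the median-ratio scale factor (0.0196 and 0.0132). With that factor 6 of the 11 class II chains and loading genes were called higher and 1 lower. Of 7 class II regulators, Rfxank and Rfxap, subunits of the RFX complex on the X box, fell by 0.43 (adjusted p = 0.00159) and 0.35 (0.0149), and Rfx5, the other subunit, was at -0.02 (0.962). Rfxank was lower without overlap, and 24.3% of all genes showed no overlap. Over all genes 32.1% were called lower, so that 2 of 7 is not above the background. The Rfxap call was lost with the median-ratio scale factor (0.0891) and the Rfxank call with the most abundant transcript (-0.20, adjusted p = 0.305). With the median-ratio scale factor 1 of the 7 regulators was called higher and 1 lower.

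Of the 5 genes listed for co-stimulation, the signal that a T cell needs beside the peptide, 4 were called lower (median -0.28), and 1 of these 4, Cd274, is an inhibitory ligand. Over all genes 32.1% were called lower. Cd86 was 1.78 to 2.78 FPKM among PZH mice and 4.23 to 6.23 FPKM among control mice, a fall of 0.86 on the log2 scale (SE 0.09, limma adjusted p = 2.81e-05). Cd274, which encodes PD-L1, fell by 0.71 (adjusted p = 0.00189), Cd80 by 0.28 (0.00693) and Cd40 by 0.28 (0.0294). Cd86, Cd274 and Cd80 did not overlap between groups, a property of 24.3% of all genes. Levels were low for Cd80, with means of 0.937 FPKM among PZH mice and 1.36 FPKM among control mice. They were lower still for Cd40, with means of 0.094 and 0.347 FPKM. These 4 calls were made with the median-ratio scale factor as well.

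Of 14 genes of the interferon-gamma response (median -0.47, against -0.11 for all genes), 4 were called lower and none higher. Over all genes 32.1% were called lower, so that 4 of 14 is not above the background. With the median-ratio scale factor 3 of the 14 were called lower. The chemokine Cxcl10 fell by 1.58 on the log2 scale (SE 0.36, limma adjusted p = 0.00333), and the interferon-induced GTPases Iigp1, Irgm1 and Gbp7 fell by 0.78 (adjusted p = 0.000217), 0.77 (0.000985) and 0.43 (0.0494). The Gbp7 call was lost with the median-ratio scale factor and in 8 of the 12 fits without 1 mouse, and the Cd40 call in 6 of them and with the most abundant transcript (-0.14, adjusted p = 0.0747).

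**Figure D4:**
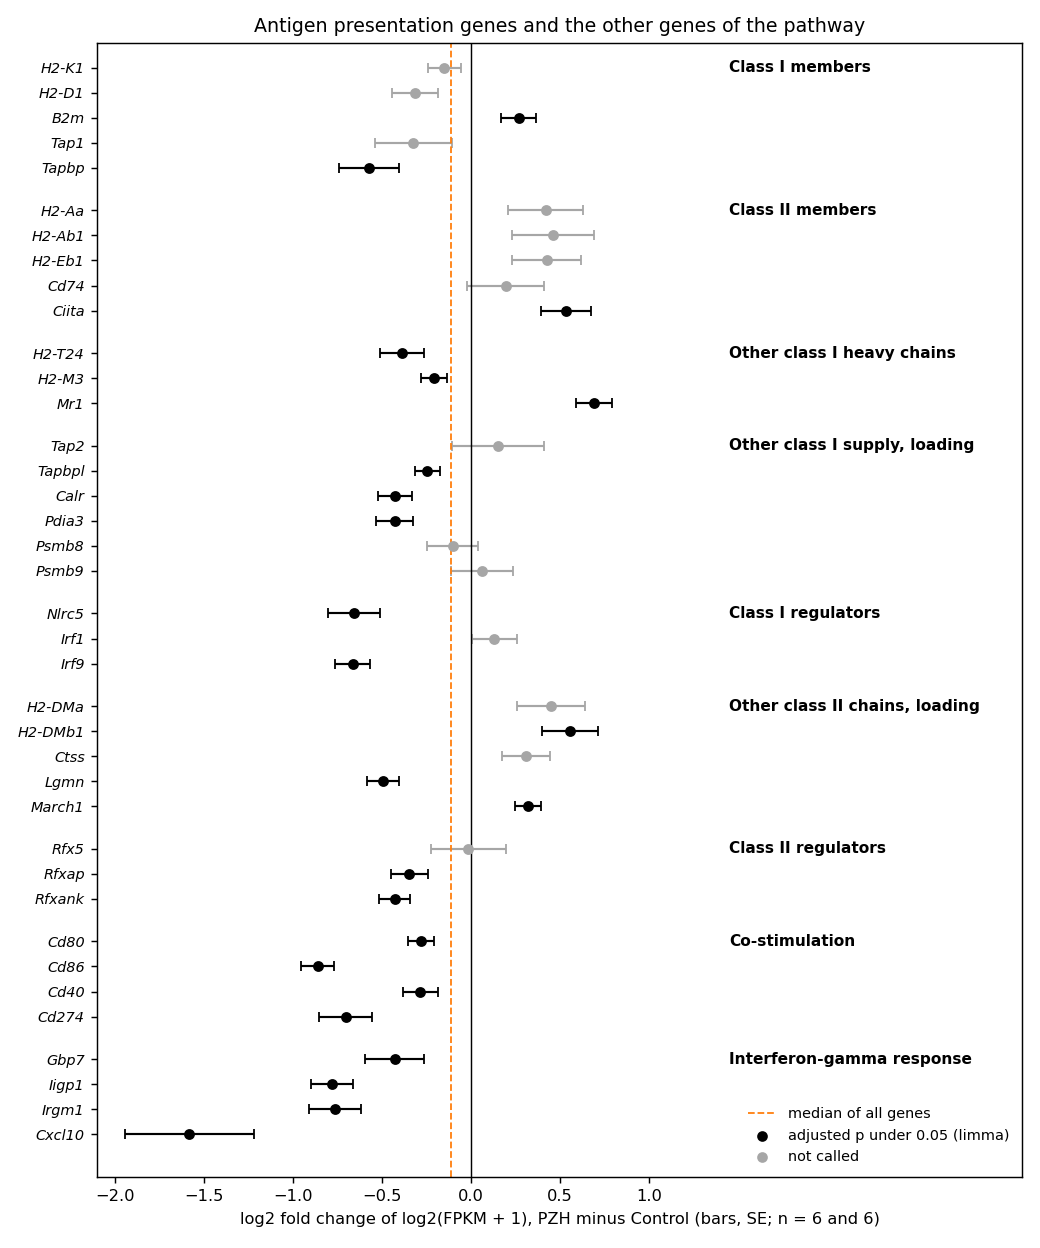
Log2 fold change (horizontal axis, PZH minus control on log2(FPKM + 1)) with SE bars for the 10 members and the named genes of the 7 other pathway lists. Black points passed limma's adjusted threshold and grey points did not, and the dashed line is the median of all genes at -0.11. Class II members and H2-DMb1 lie to the right of it, and the called genes of co-stimulation and the interferon-gamma response lie to the left.

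Markers of the cells that carry class II moved in more than 1 direction. Of 6 Kupffer cell markers, Clec4f and Vsig4 were higher (log2 fold change 0.60 and 0.57, limma adjusted p = 0.0251 and 0.0029), Marco fell by 2.21 (0.000702), and 3 were not called. Clec4f, Vsig4 and Marco did not overlap between groups, a property of 24.3% of all genes. The summed level of the 6 markers was 156.8 to 233.7 FPKM among PZH mice and 142.5 to 207.2 FPKM among control mice. Of 6 monocyte and macrophage markers, Csf1r was higher (0.38; adjusted p = 0.0108) and Ly6c2 and Itgam were lower (-0.66 and -0.87; 0.025 and 0.0493), with a sum of 200 to 358.5 against 169.7 to 306.6 FPKM. Of 7 dendritic cell markers, Cd209a was higher (0.47; adjusted p = 0.00456), at low means of 0.767 FPKM among PZH mice and 0.259 FPKM among control mice. The 7 markers had a sum of 9.24 to 13.6 against 10.1 to 14 FPKM. With the median-ratio scale factor, 3 Kupffer cell markers were called higher and 1 lower. On that scale 1 monocyte and macrophage marker was called higher and none lower, so that the calls of Ly6c2 and Itgam were lost. For the dendritic cell markers it gave 2 called higher and none lower.

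None of the 5 B cell markers (3.92 to 6.51 against 3.02 to 6.21 FPKM in sum) and none of the 6 T and NK cell markers (1.78 to 3.32 against 1.68 to 3.54 FPKM) was called. Ptprc, carried by all leukocytes, was not called (log2 fold change 0.04, adjusted p = 0.922). Sinusoidal endothelium, which also presents antigen, had lower Lyve1 and Pecam1 and 3 markers that were not called, and of 5 stellate cell and fibroblast markers Des alone was called, to the lower side. With the median-ratio scale factor, 1 endothelial marker was called lower and 1 higher, and 1 B cell marker was called higher. Of the hepatocyte markers, Alb, Ttr and Cps1 were called higher. As a check of the labelled tissue, Alb stood at 33360 to 46360 FPKM among PZH mice and at 18020 to 29480 FPKM among control mice. The part of these cell types in the differences of the class I and class II genes was not tested.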

How the data were processed

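The authors made strand-specific libraries, depleted of ribosomal RNA, from the livers of 12 mice and read 150 bases. The submitters' processing notes name Trimmomatic, HISAT2, StringTie and the build GRCm38. The authors deposited FPKM per transcript and mouse, and the values are not read counts. The protein-coding table held 29883 transcripts, of which 29876 matched GENCODE M21, and FPKM of a gene's transcripts were summed. The lncRNA table was not used here. Low values fell on whole multiples of 1 fragment for 13.3% to 24.2% of a mouse's low values (within 0.02 fragments, 4% by spacing), so counts and counting intervals were not recovered and precision is the spread between mice.

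Groups were taken from the labels, with each mouse as 1 replicate. log2(FPKM + 1) was tested with limma 3.58.1 in R 4.3.3 (lmFit, eBayes, no filter), two-sided, with Benjamini-Hochberg adjustment over all genes or transcripts and calls at 0.05. Single genes were also tested by exact permutation over 924 labellings (smallest p 0.0022), and the script was tested on simulated data. Members and lists were chosen with earlier results of these data known, and no set test was run. Named beside the 10 members are the list genes that were called, at most the 4 largest per direction and list, and Nlrc5, Tap2, Irf1, Psmb8, Psmb9, Rfx5, H2-DMa and Ctss. Of the genes that this rule gave, 1 is not reported here. Transcripts of members were named from a mean of 1 FPKM in a group, and Tap1 ENSMUST00000041633 was named after its values were seen. Alternatives were a filter at a mean of 1 FPKM, a pseudocount of 0.1, median-ratio and equal-sum scaling, a mean-variance trend, the most abundant transcript, the mouse number as a replicate block and each mouse left out. Figures were drawn with matplotlib 3.10.9, and permutations ran in scipy 1.17.1 under Python 3.11.15.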

Additional observations from a re-analysis of the deposited data

Results flagged for a closer look

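Of 160 sets of 6 values of 1 group that were examined (genes, transcripts, ratios and class means), 5 held a mouse whose gap to the nearest other mouse was above Dixon's critical value. Chance flags about 1 in 20 such sets. Cd74 was 115 FPKM in control mouse 5 and 55.8 to 72.2 FPKM in the other control mice, and H2-DMb1 was 5.76 FPKM in the same mouse and 2.93 to 3.61 FPKM in the others. In control mouse 4, Cd274 was 5.1 FPKM against 2.26 to 3.11 FPKM in the others. The endothelial marker Lyve1 was 3.59 FPKM in PZH mouse 6 and 4.78 to 5.63 FPKM in the other PZH mice. The ratio of H2-Aa over H2-Ab1 was 2.32 in PZH mouse 1 and 1.17 to 1.46 in the other PZH mice.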

How the results depend on the processing

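The class II minus class I difference kept its sign under all 4 other settings (0.44 to 0.73) and without 1 mouse (0.54 to 0.72). At the gene level 2 members were called higher, and 1 with an equal FPKM sum, a mean-variance trend, the most abundant transcript, a pseudocount of 0.1 or the replicate block, 5 with the median-ratio scale factor and 1 to 5 without 1 mouse. Members called lower were 1, and 0 with the median-ratio scale factor, 2 with the most abundant transcript or the replicate block, and 1 to 2 without 1 mouse. Genes called higher were 2736 and lower 2793 with the median-ratio scale factor, and 1529 to 1891 and 3989 to 4624 without 1 mouse. The 2-fold rule gave 570 genes, 1317 with a pseudocount of 0.1 and 511 to 675 without 1 mouse. Among transcripts, 4186 were called lower and 2489 with the median-ratio scale factor, with 1405 to 1792 higher and 3412 to 4216 lower without 1 mouse. Member transcripts called higher were 1, 3 with the median-ratio scale factor and 1 to 2 without 1 mouse, and those called lower were 2, 0 with the median-ratio scale factor, 1 with a pseudocount of 0.1 and 0 to 2 without 1 mouse. The sign turned with the median-ratio scale factor in H2-K1 (0.035, limma adjusted p = 0.815; exact permutation p = 0.732), its transcripts ENSMUST00000025181 (0.027) and ENSMUST00000172912 (0.048), Psmb8 (0.053) and Rfx5 (0.083), and with the most abundant transcript in Irf1 (-0.184). Without 1 mouse it turned in Tap2 (-0.028 to 0.306), Psmb8 (-0.176 to 0.019), Psmb9 (-0.056 to 0.145), Rfx5 (-0.204 to 0.087) and H2-K1 ENSMUST00000173075 (-0.077 to 0.266), none of them called. The cause of these changes was not tested. Mice with the same number did not deviate together (correlations -0.0784 to 0.0929, and 0 of 6 PZH mice correlated best with their own number), and with the mouse number as a replicate block B2m was not called (adjusted p = 0.0541) and H2-D1 was (adjusted p = 0.0416). Depth per mouse is not known from FPKM, which limits what can be said of Tap1, Ciita and other genes near 1 FPKM.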
